A study of Mus musculus with 72 samples.

Results

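Colon RNA of 15 mice with hapten colitis that had received TNFR-Ig and an antibody against TWEAK together was compared with that of 8 mice with the same colitis that had received no antibody or fusion protein, 23 of the 72 arrays of the series. The arrays were chosen by their labelled treatment alone. All mice were wild type Balb/c. Colitis was induced with TNBS (trinitrobenzene sulfonic acid, a hapten given into the rectum in ethanol) at a dose of 70 µg/g, and the mice were killed on day 4. The combination was TNFR-Ig at 0.3 mg/kg with the anti-TWEAK antibody mP2D10 at 10 mg/kg, injected before the TNBS. The design text says that this dose of TNFR-Ig was chosen because it eased the disease much less than a higher one. The untreated mice received TNBS and neither agent. The work was done in 2 experiments, numbered 7 and 10 by the submitters, with 8 combination and 4 untreated arrays in experiment 7 and 7 combination and 4 untreated arrays in experiment 10. For comparison, 15 arrays came from colitic mice given a control IgG2a antibody against human CD20 at 10 mg/kg, and 8 arrays came from naive mice without TNBS, all of experiment 10. Each array is 1 mouse, and age and the hour of killing are not given in the sources used here.

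TNF and TWEAK are related cytokines. TNF acts through the receptors Tnfr1 (gene Tnfrsf1a) and Tnfr2 (Tnfrsf1b), and TWEAK acts through Fn14 (Tnfrsf12a), which is low in healthy tissue and appears after injury. Both can release NF-kB, a family of transcription factors held in the cytoplasm by IkB proteins, which then switches on chemokines, cytokines, adhesion molecules and its own inhibitors. TNFR-Ig is a soluble TNF receptor fused to an antibody tail that binds TNF before it reaches its receptors. In TNBS colitis, neutrophils and monocytes enter the colon wall within days, and the epithelium, vessels and connective tissue change with them. The title of the study names canonical NF-kB and the joint action of both cytokines. The comparison shows how the colon of colitic mice given both blocking agents differs from that of mice given none. Untreated mice received no antibody, so blockade and antibody exposure cannot be told apart in it. The control IgG group is therefore set beside it in a later paragraph.

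Because the title concerns NF-kB, promoter sequence is shown for 4 NF-kB target genes whose RNA was lower with the combination and which hold an NF-kB-like motif close to the gene start. The motif searched was GGGANNNTCC, or GGANNNTCCC on the other strand, in the 250 bases before each gene start (RefSeq, GRCm38.p6). These windows lie on the + strand at chr5:90891134-90891223 (Cxcl1), chr5:90903762-90903851 (Cxcl2), chr5:90785988-90786077 (Cxcl3) and chr5:30013030-30013113 (Il6), and the capitals mark the match.
Cxcl1: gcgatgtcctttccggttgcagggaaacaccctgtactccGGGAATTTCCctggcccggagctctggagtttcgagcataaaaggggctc
Cxcl2: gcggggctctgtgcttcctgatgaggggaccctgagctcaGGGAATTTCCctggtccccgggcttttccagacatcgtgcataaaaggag
Cxcl3: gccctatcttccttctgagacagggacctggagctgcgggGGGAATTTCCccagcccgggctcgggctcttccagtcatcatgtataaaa
Il6: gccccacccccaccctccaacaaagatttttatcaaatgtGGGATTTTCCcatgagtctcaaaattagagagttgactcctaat
The 3 chemokine genes share the same match, GGGAATTTCC, and Il6 has GGGATTTTCC. The match starts 71 bases before the gene start in Cxcl1, 97 in Cxcl2, 73 in Cxcl3 and 44 in Il6. Of the 19 NF-kB target genes that were lower with the combination, 13 had an entry in the promoter table and these 4 (30.8%) held the motif, against 1192 of 27025 genes (4.41%) in the whole table. The 13 genes come from a list of NF-kB targets, so their share says nothing about the combination. The share among NF-kB targets that were not lower was not computed. A match is a description of the letters and not a measured binding site.

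Array medians and the share of probe sets near the lowest value were similar on all arrays. Array medians lay between 4.60 and 4.77 on the deposited log2 scale, and between 36.00% and 37.84% of probe sets lay within 0.1 of the lowest deposited value, 2.08, called the floor here. The colon was recognisable on every one of the 23 arrays: Car1, an enzyme of colonocytes, lay between 14.86 and 15.21, Muc2, the mucin of goblet cells, between 14.28 and 14.64, Cdx2, the intestinal transcription factor, between 13.93 and 14.31, Vil1, of the brush border, between 13.40 and 13.85, and Myh11, of smooth muscle, between 13.25 and 13.95. The log2 difference between the 3′ and 5′ probe sets of Actb is a measure of RNA integrity. It lay between 1.00 and 1.16 in untreated and between 0.98 and 1.5 in combination arrays. In experiment 7 the groups overlapped. In experiment 10 they did not, with 1.025 to 1.114 in untreated and 1.117 to 1.5 in combination arrays. With this difference as a covariate, 2131 genes were called against untreated arrays, and its part in other results was not tested further. Seminal vesicle genes, which belong to a neighbouring male gland, had a list median more than 4 log2 units above the floor on 4 combination arrays (replicates 5 to 8 of experiment 7) and on none of the 8 untreated arrays. The same held for 3 of 12 arrays of colitic mice given TNFR-Ig alone and 1 of 8 naive arrays. It held for 0 of 15 control IgG arrays and 0 of 14 arrays of colitic mice given anti-TWEAK alone. Without the 4 combination arrays, 14 of the 137 genes named with values lost their call against untreated arrays, and the value is given for most of them. Where a named gene lost its call for a difference between experiments without these arrays, that value is given.

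The combination group differed from untreated colitis in many genes. Of 12534 genes tested, 1638 (13.1%) were higher and 1259 (10.0%) were lower at an adjusted p under 0.05. Most of these differences were small, with a median size of 0.32 log2 units among the called genes, and 334 were at least 1 log2 unit, of which 77 were higher and 257 lower. The median difference over all genes tested was 0.02. Within the experiments the direction was the same for 2844 of the 2897 called genes, but those experiments entered the fit that made the calls. Effects within each experiment were first taken from 1 joint fit of the colitic arrays of both experiments. There, experiment 7 gave 764 genes higher (6.10%) and 1138 lower (9.08%), and experiment 10 gave 1285 higher (10.3%) and 601 lower (4.79%). When the colitic arrays of each experiment were fitted on their own, experiment 7 gave 353 higher and 523 lower. Experiment 10 on its own gave 1989 higher and 767 lower. Without the 4 arrays with seminal vesicle genes, 2161 genes were called. When the untreated and combination arrays were fitted without the other colitic groups, 1977 genes were called, and in experiment 7 alone that smaller fit called 0 genes (limma, 2620 genes at an unadjusted p under 0.05).

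The largest falls were in genes of neutrophils and of activated macrophages. Ngp, a granule protein of neutrophil precursors, ranged from 2.09 to 11.84 with a median of 9.10 in untreated colitis and from 2.08 to 8.58 with a median of 2.08 with the combination. It lay at the floor on 12 of 15 combination arrays, was measured well above it only on replicates 1 and 7 of experiment 7, and was at the floor in untreated replicate 1 of experiment 10. Its log2 difference was -5.72 ± 1.18 (SE, adjusted p = 0.000446), and values at the floor make this a bound rather than a measured fold. Mmp8, the neutrophil collagenase, ranged from 6.6 to 11.47 with a median of 10.15 in untreated arrays and from 2.08 to 8.51 with a median of 2.42 in combination arrays. There, 11 of 15 combination arrays lay below the lowest untreated array and 4 overlapped the untreated range. The log2 difference of Mmp8 was -5.68 ± 1.14 (SE, adjusted p = 0.000319).

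Chil3, a chitinase-like protein secreted by myeloid cells, was bright in untreated colitis, from 10.48 to 13.43 with a median of 12.51, and ranged from 2.45 to 11.71 with a median of 6.57 with the combination. All but 2 of the 15 combination arrays lay below every untreated array. Chil3 fell by 5.31 on the log2 scale (SE 1.03, adjusted p = 0.000235), a 39.6-fold lower level. Ptx3, a soluble pattern recognition protein, fell by 4.78 (adjusted p = 0.000416), from a median of 10.42 to one of 4.88. Clec4e, the receptor Mincle of myeloid cells, had medians of 10.82 and 6.15 and a log2 difference of -4.55 (adjusted p = 0.000854). Ifitm6, an interferon-induced transmembrane family member of myeloid cells, had medians of 10.03 and 4.88 and a log2 difference of -4.43 (adjusted p = 0.000132). All 3 of these genes were at or near the floor on the naive arrays, where their highest value was 3.12, and the combination medians lay between the naive and the untreated medians.

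Prok2, a secreted chemoattractant made by neutrophils and monocytes, lay between 4.28 and 9.38 in untreated arrays and fell by 4.37 (adjusted p = 0.000138), with 8 of 15 combination arrays at the floor. Stfa2l1, a stefin of neutrophils, fell by 4.18 (adjusted p = 0.000746), from a median of 11.63 to one of 7.06. The decoy receptor for interleukin 1, Il1r2, fell by 4.11 (adjusted p = 0.00027), from 10.66 to 7.17. The enzyme that makes itaconate in activated macrophages, Acod1, fell by 3.98 (adjusted p = 0.00274), from 11.31 to 8.56. For Stfa2l1 and Il1r2, 10 of 15 combination arrays lay below the lowest untreated array, and for Acod1 8 of 15 did, so the groups overlapped for each. No call among these 10 largest falls was lost when any 1 of the 23 arrays was left out or when the 4 arrays with seminal vesicle genes were.

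**Figure D1:**
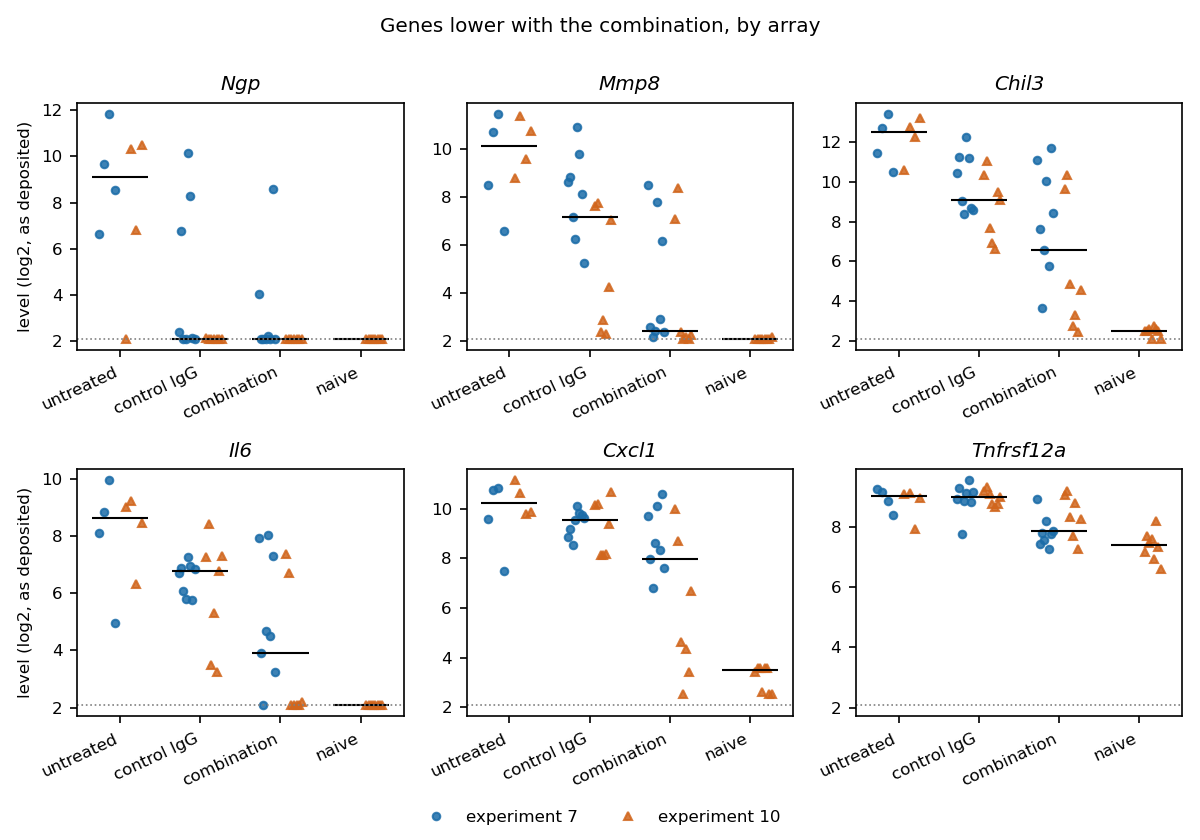
Deposited log2 level (vertical axis) of 6 genes on each array of the untreated, control IgG, combination and naive groups. Circles are experiment 7, triangles experiment 10, black bars group medians and the dotted line the floor of 2.08. The combination median of Mmp8 is 2.42 against 10.15 in untreated colitis, while Tnfrsf12a shows the smaller shift from 9.02 to 7.86 with overlap.

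These falls were not shared evenly by the combination mice. Replicate 1 of experiment 7 was at or above the lowest untreated array for 10 of the 10 genes, replicate 5 for 9 and replicate 7 for 7, and in experiment 10 replicate 2 was so for 7 and replicate 1 for 6. Replicates 4 and 6 of experiment 7 were so for 1 gene each, and the other 8 combination arrays for 0. The median level of the 10 genes per array ran from 2.08 (replicate 7 of experiment 10) to 9.42 (replicate 1 of experiment 7) with the combination. In untreated colitis it ran from 8.44 (replicate 5 of experiment 7) to 11.79 (replicate 3 of experiment 7). Both experiments held combination arrays that lay below the lowest untreated array for all 10 genes and others that were at or above it for 6 or more.

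Neutrophil markers fell as a group, by count. Of 14 tested, 12 were lower and 0 higher with the combination, with a median log2 difference of -3.40, beside 0.02 over all genes tested. Their summed level, the log2 of the added linear values, ranged from 15.27 to 16.87 in untreated, from 10.52 to 16.10 in combination and from 6.40 to 11.35 in naive arrays. In whole colon RNA, fewer cells of a type and less RNA per cell cannot be told apart. Monocyte and macrophage markers were lower for 18 of 21 tested and higher for 1, with a median of -0.96. Marco, a scavenger receptor of macrophages, ranged from 2.2 to 9.35 in untreated and from 2.11 to 6.85 in combination arrays, with 9 of 15 combination arrays at the floor, and fell by 3.89 (adjusted p = 0.00313). Arg1, the arginase of alternatively activated macrophages, fell by 2.44 (adjusted p = 0.00084), from a median of 11.70 to one of 9.57. Itgam, the integrin CD11b of myeloid cells, was dim on this array, with medians of 4.35 and 2.25, and fell by 1.78 (adjusted p = 0.00015).

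Fc gamma receptors and complement genes were lower as well. Of 7 Fc gamma receptor genes, 6 fell and 0 rose, with a median of -1.26. Fcgr4, an activating receptor for IgG2a and IgG2b, ranged from 8.76 to 11.15 with a median of 10.24 in untreated and from 7.23 to 9.60 with a median of 8.2 in combination arrays. On 10 of 15 combination arrays it was below every untreated array. Its log2 difference was -1.70 ± 0.33 (SE, adjusted p = 0.000231), that of Fcgr1, the high-affinity receptor, -1.52 (adjusted p = 0.000374), and that of Fcgr3, a low-affinity activating receptor, -1.26 (adjusted p = 0.000209). Among 13 complement genes, 9 fell and 0 rose, with a median of -0.49. The receptors for the anaphylatoxins, C3ar1 and C5ar1, both fell by 1.23 (adjusted p = 0.00161 and 0.00016), C1qa, of the classical pathway, by 0.71 (adjusted p = 0.0047), and Cfp, which stabilises the alternative pathway convertase, by 1.42 (adjusted p = 0.000319). The probe sets of Cfp disagreed, from -1.42 to 0.37.

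Of the receptors the agents concern, all 3 measured here were lower with the combination. Tnfrsf12a, the TWEAK receptor Fn14, ranged from 7.91 to 9.25 with a median of 9.02 in untreated and from 7.24 to 9.18 with a median of 7.86 in combination arrays. It was below the lowest untreated array on 8 of 15 combination arrays, while replicates 1 and 2 of experiment 10, at 9.04 and 9.18, lay above the untreated median. The log2 difference was -0.75 ± 0.22 (SE, adjusted p = 0.0093), a 1.68-fold lower level. Tnfrsf1b, the TNF receptor of leukocytes and endothelium, lay between 10.32 and 11.35 in untreated and between 9.77 and 10.89 in combination arrays, and 10 of 15 combination arrays lay below every untreated array. It fell by 0.71 (SE 0.14, adjusted p = 0.000203). Tnfrsf1a, the TNF receptor of most cells, fell by 0.34 (SE 0.10, adjusted p = 0.0144), with medians of 10.61 and 10.18. The naive medians of these 3 genes, 7.38, 9.67 and 9.92, were lower than the medians of both colitic groups.

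Tnf itself was too dim to be tested: it lay within 0.1 of the floor on 5 of 8 untreated, 14 of 15 combination and 8 of 8 naive arrays, with a highest value of 3.62. The TWEAK gene was not analysed here. Across 14 tested ligands and receptors of the TNF family, 6 were lower and 2 higher, with a median of -0.15. Tnfsf11, the ligand RANKL, ranged from 4.89 to 9.29 in untreated and from 2.82 to 7.15 in combination arrays and fell by 2.87 (adjusted p = 0.000251). Tnfsf9, the ligand 4-1BBL, fell by 1.78 (adjusted p = 0.000146), and its receptor Tnfrsf9 by 1.12 (adjusted p = 0.00123). Tnfsf10, the ligand TRAIL, which interferon also induces, rose by 0.76 (adjusted p = 0.000814), with 11 of 15 combination arrays above the highest untreated array.

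Genes for the NF-kB proteins and their regulators were called about as often as all genes. Among 20 subunits, kinases and feedback genes, 3 were lower and 2 higher, with a median of -0.05, beside 10.0% lower and 13.1% higher over all genes. Rela, the main activating subunit of the canonical pathway, differed by -0.12 (adjusted p = 0.0679), and Relb and Nfkb2, of the noncanonical pathway, by 0.09 (adjusted p = 0.566) and 0.07 (adjusted p = 0.554). The probe sets of Nfkb2 ran from -0.39 to 0.07. Nfkbia, the inhibitor IkB alpha and itself a target of the pathway, ranged from 13.73 to 14.24 in untreated and from 13.51 to 14.24 in combination arrays, and 7 of 15 combination arrays lay below the lowest untreated array. It fell by 0.25 (SE 0.07, adjusted p = 0.00783). Other regulators moved both ways. Nfkbie, the inhibitor IkB epsilon, fell by 0.72 (adjusted p = 0.00108), Bcl3, an atypical IkB protein, fell by 0.51 (adjusted p = 0.00909), and Ikbkg, the scaffold of the IkB kinase, rose by 0.20 (adjusted p = 0.00826) although its probe sets ran from -0.14 to 0.20.

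Of 28 tested target genes of canonical NF-kB, 19 were lower and 3 higher, with a median log2 difference of -0.83. In experiment 7, 3 were lower and 2 higher, with a median of -0.69. Over all genes tested, 9.08% were lower and 6.10% higher in that experiment, so these counts were near those shares. In experiment 10, 18 were lower and 1 higher, with a median of -1.32, beside 4.79% lower and 10.3% higher over all genes. Il6, a cytokine of the acute phase whose promoter is printed above, ranged from 4.97 to 9.96 with a median of 8.64 in untreated and from 2.08 to 8.06 with a median of 3.90 in combination arrays. On 10 of 15 combination arrays it was below every untreated array, and 5 of those were at the floor. It fell by 3.72 (SE 0.91, adjusted p = 0.00228), 13.2-fold on the deposited scale. Lcn2, the siderophore-binding protein lipocalin 2 of neutrophils and inflamed epithelium, ranged from 11.92 to 14.43 in untreated and from 5.78 to 13.78 in combination arrays, and 10 of 15 combination arrays lay lower than every untreated one. It fell by 3.26 (SE 0.74, adjusted p = 0.00119). Saa3, an acute phase protein of inflamed tissue, fell by 1.73 (adjusted p = 0.00105). The 3 targets that rose, named after their values were seen, were Ccl20, a chemokine of epithelium, by 1.13, Cd83, of activated antigen-presenting cells, by 1.02, and Irf1, an interferon-induced transcription factor, by 0.55. The call of Ccl20 was lost on leaving out any of 9 of the 23 arrays (highest adjusted p 0.135), without the 4 arrays with seminal vesicle genes (0.125) and with the compared groups alone (0.109).

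The chemokine genes with the printed promoters were lower but overlapped the untreated arrays. Cxcl1, a neutrophil attractant, ranged from 7.51 to 11.15 with a median of 10.26 in untreated and from 2.55 to 10.58 with a median of 7.98 in combination arrays, and only 6 of 15 combination arrays lay below the lowest untreated array. Its log2 difference was -2.72 ± 0.68 (SE, adjusted p = 0.00296). Cxcl3 had a difference of -3.13 ± 0.81 (SE, adjusted p = 0.00382), and Cxcl2, named after its values were seen, one of -2.28 ± 0.68 (SE, adjusted p = 0.0112). Ccl3, which attracts monocytes and neutrophils, differed by -3.67 (adjusted p = 0.00803), and Ccl7, a monocyte attractant, by -3.01 (adjusted p = 0.000704). In all, 12 of 21 chemokines were lower and 3 higher, with a median of -0.58. In experiment 7, 2 were lower, near the 9.08% over all genes there, against 12 in experiment 10, beside 4.79%. When only the untreated and combination arrays were fitted, the adjusted p was 0.102 for Cxcl2 and 0.0724 for Ccl3.

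Cytokines showed the same count pattern, with 9 of 13 lower, 1 higher and a median of -1.27. In experiment 7, 1 was lower, near the 9.08% over all genes there, against 6 in experiment 10, beside 4.79%. Il1b, the cytokine interleukin 1 beta, ranged from 10.29 to 14.06 with a median of 12.87 in untreated and from 6.12 to 13.32 with a median of 10.68 in combination arrays. It lay below every untreated array on 6 of 15 combination arrays, so that most arrays of both groups shared a range. It fell by 2.41 (SE 0.64, adjusted p = 0.00465). Il1f9, an interleukin 1 family member of epithelium, fell by 2.70 (adjusted p = 0.00102), and Osm, an interleukin 6 family cytokine of myeloid cells, by 1.86 (adjusted p = 0.0301). The cytokine that rose was Tslp, described with the rises. With the compared groups alone the adjusted p was 0.0576 for Il1b and 0.071 for Osm, and the call of Osm was also lost on leaving out any of 4 single arrays (highest adjusted p 0.109).

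Among genes of tissue remodelling, 12 of 19 matrix proteases and inhibitors were lower and 0 higher, with a median of -0.95. Mmp3, a stromelysin of activated fibroblasts, ranged from 9.01 to 11.57 with a median of 10.93 in untreated and from 4.27 to 10.65 with a median of 7.78 in combination arrays. On 10 of 15 combination arrays it was below the lowest untreated array. It fell by 2.73 (SE 0.53, adjusted p = 0.00025). Timp1, an inhibitor of these proteases, fell by 2.55 (adjusted p = 0.00112), and Adam8, a leukocyte membrane protease, by 2.77 (adjusted p = 0.00102). Of 23 extracellular matrix and fibroblast genes, 15 were lower and 0 higher, but with a median of only -0.28. Has2, a hyaluronan synthase, fell by 1.39 (adjusted p = 0.00151), Thbs1, a matricellular protein of wounds, by 1.28 (adjusted p = 0.000881), Lox, a collagen crosslinking enzyme, by 1.16 (adjusted p = 0.0014), and Tnc, tenascin C, by 0.65 (adjusted p = 0.00464). Without the 4 arrays with seminal vesicle genes, and likewise with the compared groups alone, 9 of the 23 were lower.

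Vessel and clotting genes moved in the same direction. Of 17 endothelial markers, 14 were lower and 0 higher, with a median of -0.58, and with the compared groups alone 9 were lower. Selp, the selectin on which leukocytes roll, ranged from 8.26 to 11.42 with a median of 10.54 in untreated and from 5.06 to 9.89 with a median of 7.66 in combination arrays. It lay below every untreated array on 9 of 15 combination arrays. It fell by 2.39 (SE 0.48, adjusted p = 0.000363). The adhesion molecules Vcam1 and Icam1, both also counted as NF-kB targets, fell by 0.80 (adjusted p = 0.000184) and 0.76 (adjusted p = 0.00901), and Ackr1, a chemokine-binding receptor of venules, by 0.92 (adjusted p = 0.0106). Of 12 coagulation and platelet genes, 7 were lower and 0 higher: Ppbp, a platelet chemokine, fell by 1.78 (adjusted p = 0.00337), F13a1, the clot-crosslinking factor XIII subunit that macrophages also make, by 1.35 (adjusted p = 0.000634), and Plaur, the urokinase receptor, by 1.14 (adjusted p = 0.00102).

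Enzymes of lipid mediators and oxidants, many of them made by myeloid cells, were partly lower. Of 11 prostaglandin and leukotriene genes, 4 fell and 1 rose, with a median of -0.24. Alox5ap, needed for leukotriene synthesis, fell by 2.50 (adjusted p = 0.000165), Pla2g2a, a secreted phospholipase, by 1.51 (adjusted p = 0.00298), and Ptgs2, the inducible cyclooxygenase, by 0.95 (adjusted p = 0.0126, or 0.063 with the compared groups alone). The gene of this list that rose, Pla2g4c, a cytosolic phospholipase, is described with the rises. Of 7 oxidant-producing enzymes, 4 fell and 0 rose. The subunits of the phagocyte oxidase Ncf1, Ncf4 and Cybb fell by 2.07 (adjusted p = 0.00028), 1.58 (adjusted p = 0.000236) and 1.07 (adjusted p = 0.000821). Hdc, the histamine-forming enzyme of mast cells that neutrophils also express, fell by 3.91 (adjusted p = 0.00184) and was the 1 of 3 tested mast cell markers called.

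**Figure D2:**
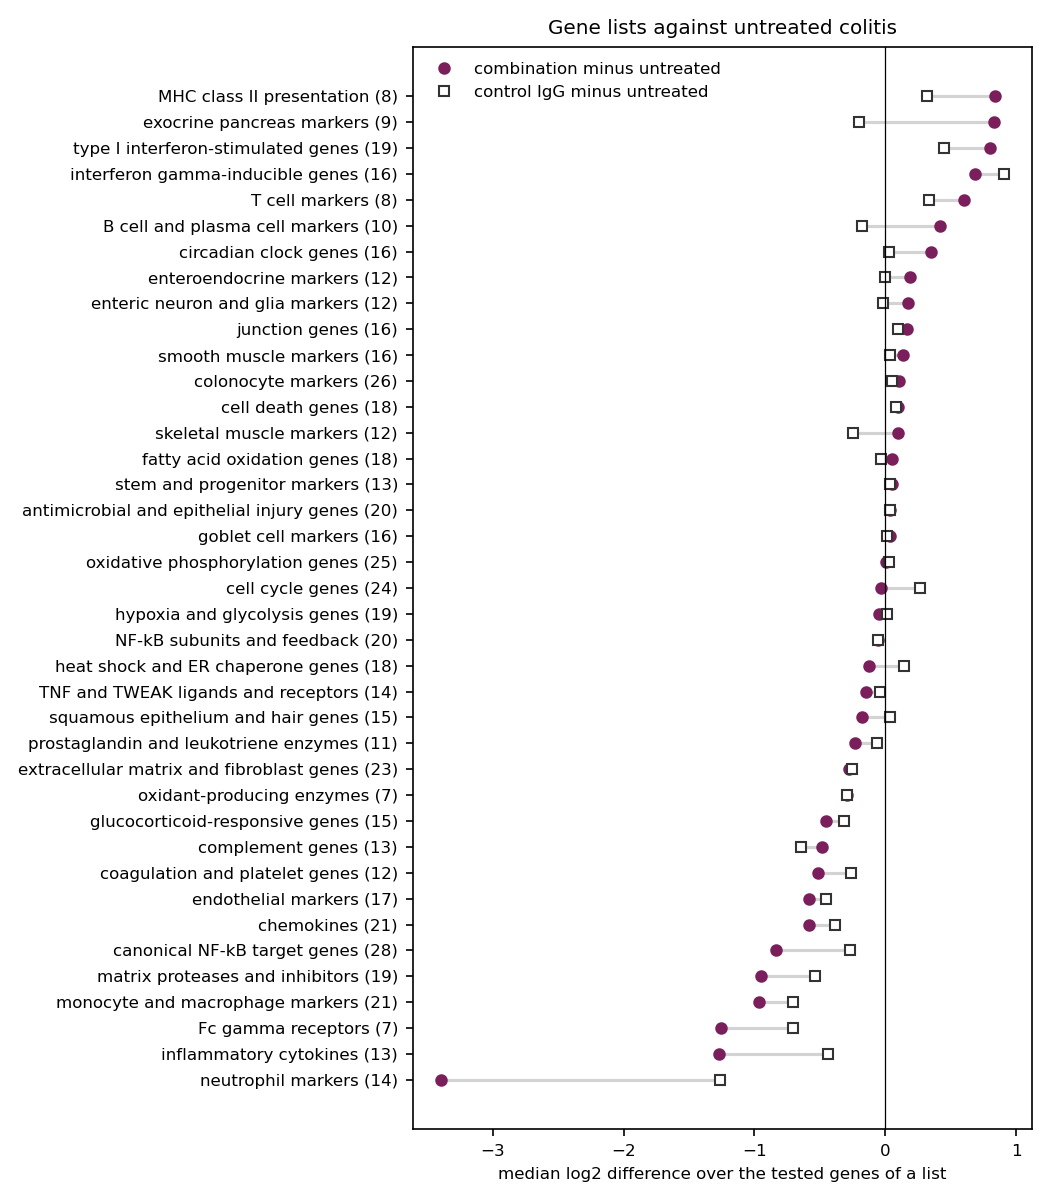
Median log2 difference from untreated colitis (horizontal axis) of each gene list with at least 7 tested genes, with the number tested in parentheses. Filled circles are the combination and open squares control IgG, which share the 8 untreated arrays. Neutrophil markers have the lowest combination median, -3.40 against -1.26 for control IgG, and interferon gamma-inducible genes have 0.69 and 0.91.

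The largest rises were of several kinds. Pbsn, a secreted protein of the prostate, had the largest difference, 4.59 (SE 1.70, adjusted p = 0.0411), and Pate14, a small secreted protein of male glands, differed by 3.83 (adjusted p = 0.0353). Pbsn ranged from 2.24 to 12.71 and Pate14 from 2.08 to 9.35 in untreated arrays alone, and both lost the call without the 4 arrays with seminal vesicle genes (adjusted p = 0.128 and 0.238). The median of 3 prostate genes lay more than 4 log2 units above the floor on 10 of 15 combination, 2 of 8 untreated, 4 of 15 control IgG and 2 of 8 naive arrays. Leaving out any of 13 single arrays ended the call of Pbsn (highest adjusted p 0.0953), and any of 9 that of Pate14 (0.0768). Mylk4, a myosin light chain kinase of striated muscle, rose by 2.71 (adjusted p = 0.0313), from a median of 2.62 to one of 5.54, and lost the call on leaving out any of 7 arrays (highest adjusted p 0.0641). Of 12 skeletal muscle markers 0 were called, and their summed level ran from 12.41 to 16.05 in untreated and from 10.89 to 16.64 in combination arrays. In experiment 7 its median was 13.87 in untreated and 14.99 in combination arrays, and in experiment 10 14.09 and 13.64.

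Other rises were in genes of the intestinal epithelium and its defence. Itln1, the lectin intelectin of goblet and Paneth cells, lay between 2.08 and 2.22 on all 8 untreated arrays and between 2.12 and 9.77 with a median of 3.56 on the combination arrays. It stood above every untreated array on 8 of 15 combination arrays, 4 in each experiment, and near the floor on the others. Its log2 difference was 2.24 ± 0.64 (SE, adjusted p = 0.0089, or 0.0861 with the compared groups alone), while the naive arrays reached only 3.09. Ang4, an antimicrobial ribonuclease of Paneth and goblet cells, ranged from 8.14 to 13.64 with a median of 10.62 in untreated and from 9.76 to 14.82 with a median of 13.91 in combination arrays, and 8 of 15 combination arrays lay above every untreated array. It rose by 2.34 (SE 0.74, adjusted p = 0.0171), and the call was lost without the 4 arrays with seminal vesicle genes (adjusted p = 0.0601) and without either of 2 single arrays (highest 0.051). Pla2g4c rose by 2.11 (adjusted p = 0.0386), with medians of 4.84 and 7.53, and lost the call on leaving out any of 12 arrays (highest adjusted p 0.0762) and without the 4 arrays (adjusted p = 0.0787).

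A rise seen on most combination arrays was that of Tslp, an epithelial cytokine that acts on dendritic cells and innate lymphocytes. It ranged from 3.28 to 5.35 with a median of 4.06 in untreated and from 4.81 to 7.06 with a median of 6.05 in combination arrays. On 12 of 15 combination arrays it was above every untreated array, and the naive median was 5.96. It rose by 1.68 (SE 0.27, adjusted p = 2.64e-05), by 1.69 in experiment 7 and by 1.68 in experiment 10. Il22ra2, the soluble receptor that binds interleukin 22, rose by 1.71 (SE 0.38, adjusted p = 0.000964), with 10 of 15 combination arrays above the untreated range and a combination median of 5.86 beside a naive median of 5.84. Sectm1a, a secreted immune protein, rose by 1.75 (adjusted p = 0.015), from a median of 2.30 to one of 5.09. Dbp, an output gene of the circadian clock, rose by 1.93 (adjusted p = 1.48e-05) and is described with the clock genes.

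**Figure D3:**
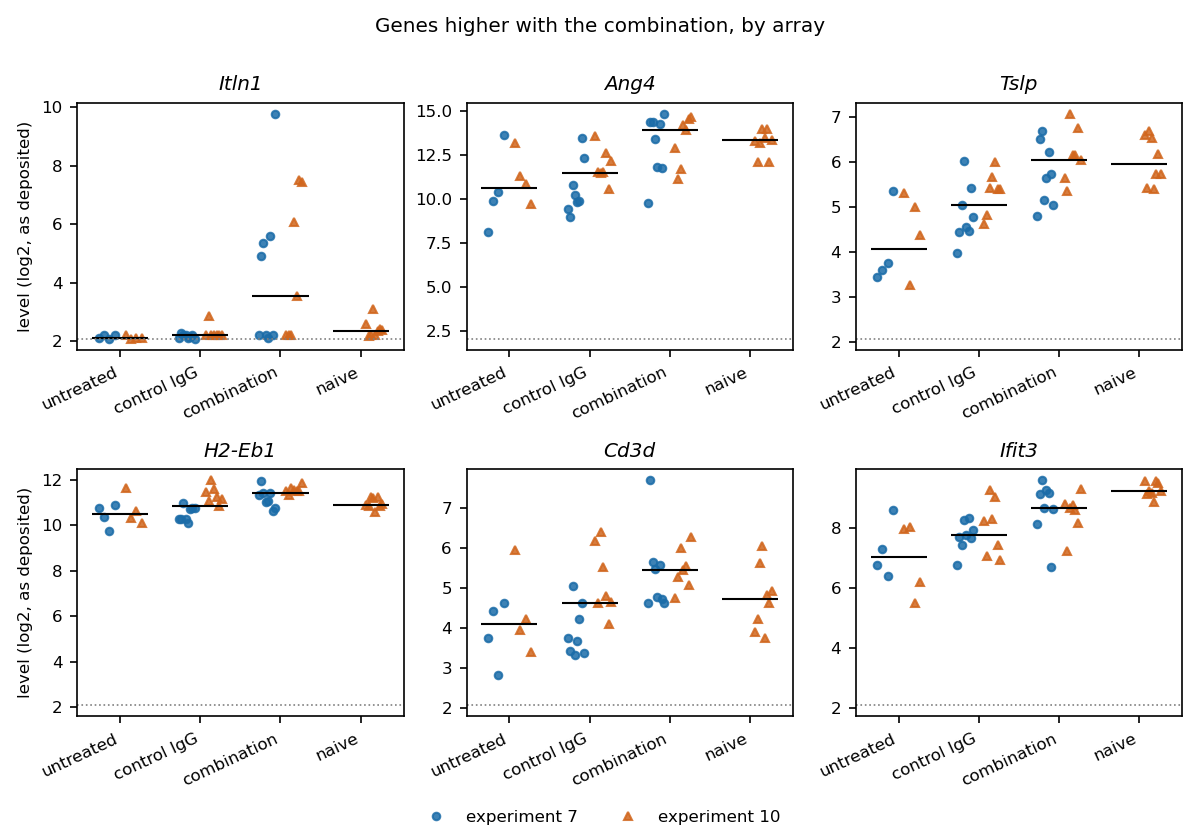
Deposited log2 level (vertical axis) of 6 genes that were higher with the combination, on each array of the untreated, control IgG, combination and naive groups. Circles are experiment 7, triangles experiment 10, black bars group medians and the dotted line the floor of 2.08. Itln1 is above 2.22 on 8 combination arrays and on 0 untreated arrays, and Tslp has medians of 4.06, 5.04, 6.05 and 5.96 from left to right.

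Most class II antigen presentation genes and the CD3 chains of T cells were higher. Of 8 tested MHC class II genes, 7 rose and 0 fell, with a median of 0.84. H2-Eb1, the beta chain of the class II molecule I-E, ranged from 9.73 to 11.62 with a median of 10.47 in untreated and from 10.64 to 11.93 with a median of 11.43 in combination arrays. Every combination array lay above the untreated median and 3 lay above the highest untreated array. Its log2 difference was 0.84 ± 0.17 (SE, adjusted p = 0.000481). Genes that act on class II peptide loading, in either direction, rose as well. H2-DMa rose by 1.08 (adjusted p = 0.00221), H2-Ob, of B cells, by 1.48 (adjusted p = 0.023) and H2-DMb2 by 0.93 (adjusted p = 0.0305). The last 2 lost the call on leaving out any of 2 and any of 4 single arrays (highest adjusted p 0.0583 and 0.0876). Among 8 T cell markers, 3 rose and 0 fell, all chains of the CD3 complex: Cd3g by 1.32 (adjusted p = 0.00391), Cd3d by 1.31 (adjusted p = 0.0036) and Cd3e by 0.56 (adjusted p = 0.0109). In experiment 7, 3 of the 8 were called and in experiment 10, 0, with medians of 0.67 and 0.58. Over all genes, 6.10% and 10.3% were higher in these experiments. Of 10 B and plasma cell markers, 1 rose, a count near the 13.1% higher over all genes. It was Jchain, the joining chain of IgA and IgM, by 0.32 (adjusted p = 0.00722).

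Most type I interferon-stimulated genes were higher with the combination, and their summed level was highest in naive colon, with medians of 12.57 in untreated, 13.48 in combination and 13.74 in naive arrays. Of 19 type I interferon-stimulated genes, 14 rose and 0 fell, with a median of 0.80. Ifit3, an antiviral protein, ranged from 5.49 to 8.58 with a median of 7.03 in untreated, from 6.70 to 9.58 with a median of 8.67 in combination and from 8.85 to 9.57 in naive arrays. It lay above every untreated array on 11 of 15 combination arrays. It rose by 1.5 (SE 0.42, adjusted p = 0.00746). Irf7, the transcription factor that amplifies the response, rose by 1.3 (adjusted p = 0.00935), Ifit1 by 1.38 (adjusted p = 0.0247), and Rtp4, another induced gene, by 1.21 (adjusted p = 0.00701) with its probe sets between 0.11 and 1.21. The call of Ifit1 was lost without the 4 arrays with seminal vesicle genes (adjusted p = 0.093) and on leaving out either of 2 single arrays (highest 0.0928). Of 16 interferon gamma-inducible genes, 10 rose and 0 fell, with a median of 0.69. Their summed level had medians of 13.38 in untreated, 14.0 in combination and 13.67 in naive arrays. The guanylate-binding proteins Gbp8, Gbp3 and Gbp6 rose by 1.67 (adjusted p = 0.000158), 1.15 (adjusted p = 0.00408) and 1.02 (adjusted p = 0.0116), and Tap1, of the peptide transporter for class I molecules, by 1.00 (adjusted p = 0.00611).

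Epithelial genes were called in both directions, and over all genes 13.1% were higher and 10.0% lower. Of 26 colonocyte markers, 8 were higher and 2 lower, with a median of 0.11, and 4 were higher without the 4 arrays with seminal vesicle genes. Aqp8, a water channel of surface colonocytes, ranged from 10.48 to 11.07 in untreated, from 10.53 to 12.01 in combination and from 12.35 to 12.57 in naive arrays. It was above every untreated array on 10 of 15 combination arrays and within the naive range on 0. It rose by 0.62 (SE 0.20, adjusted p = 0.0226, or 0.0582 without the 4 arrays with seminal vesicle genes). Slc51b, of the bile acid exporter, rose by 0.38 (adjusted p = 0.017, or 0.0804 without those arrays, and lost on leaving out either of 2 single arrays). The 2 colonocyte genes that fell were subunits of the epithelial sodium channel, Scnn1g by 1.62 (adjusted p = 0.0161) and Scnn1b by 0.88 (adjusted p = 0.0384), and leaving out single arrays ended these calls for 1 and 14 of the 23 arrays (highest adjusted p 0.0582 and 0.119).

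Goblet cell markers were higher for 4 of 16 and lower for 1, with a median of 0.03, beside 13.1% and 10.0% over all genes. With the compared groups alone, 2 were higher and 1 lower. Fcgbp, a mucus protein, rose by 0.25 (adjusted p = 0.023) and Clca1, a mucus protease, by 0.24 (adjusted p = 0.0161), while Spdef, a transcription factor of goblet cell maturation, fell by 0.42 (adjusted p = 0.0241). Each of these calls was lost on leaving out 1 of a few arrays, 3, 1 and 2 of the 23 (highest adjusted p 0.0636, 0.0522 and 0.0636), and that of Spdef also without the 4 arrays with seminal vesicle genes (adjusted p = 0.0856). Of 16 junction genes, 8 were higher and 1 lower, with a median of 0.16, and 5 were higher without the 4 arrays. F11r, the junctional adhesion molecule A, lay between 11.64 and 12.06 in untreated and between 11.94 and 12.31 in combination arrays, with 9 of 15 combination arrays above the untreated range. It rose by 0.27 (SE 0.05, adjusted p = 7.05e-05), Cldn23, a claudin of surface epithelium, by 0.48 (adjusted p = 0.00726), and Cldn8, a sealing claudin, fell by 0.27 (adjusted p = 0.00185).

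Of 12 enteroendocrine markers, 5 were higher and 0 lower, with a median of 0.19, and 3 were higher without the 4 arrays with seminal vesicle genes. Nts, the hormone neurotensin, rose by 1.37 (adjusted p = 0.0132, or 0.0543 without those arrays), from a median of 9.95 to one of 11.72 beside a naive median of 12.39, and Chga, the granule protein chromogranin A, by 0.57 (adjusted p = 0.0045). Among 13 stem and progenitor markers, 2 were higher, near the 13.1% over all genes, and 3 lower, beside 10.0%. Rnf43, a Wnt receptor antagonist of crypt bases, rose by 0.71 (adjusted p = 0.000158). Olfm4, a crypt glycoprotein that inflammation induces, differed by -1.25 (adjusted p = 0.00344) with 10 of 15 combination arrays at the floor. Of 20 antimicrobial and epithelial injury genes, 2 were higher and 5 lower, beside the same 13.1% and 10.0%. Ereg, an epidermal growth factor receptor ligand of repair, fell by 0.91 (adjusted p = 0.0012). Of 16 smooth muscle markers, 4 were higher and 0 lower, and with the compared groups alone 1 was higher. Myh11, smooth muscle myosin, rose by 0.20 (adjusted p = 0.0255, or 0.0595 with the compared groups alone), and Synpo2, an actin-binding protein of muscle, by 0.38 (adjusted p = 0.0241) while its probe sets ran from -0.38 to 0.38. Both were called in fits without any 1 array except 2 (highest adjusted p 0.0855 and 0.0622). The 1 eosinophil gene tested, Siglecf, rose by 0.50 (adjusted p = 0.046), a call lost on leaving out any of 15 of the 23 arrays (highest adjusted p 0.22), without the 4 arrays with seminal vesicle genes (0.0783) and with the compared groups alone (0.0764).

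Among general programmes, 0 of 24 cell cycle genes were called, 1 of 25 oxidative phosphorylation genes was higher, and of 18 fatty acid oxidation genes 1 was higher and 1 lower, beside 13.1% higher and 10.0% lower over all genes. Of 18 cell death genes 3 were higher and 1 lower, near those shares. Glucocorticoid-responsive genes were lower for 9 of 15 and higher for 0, with a median of -0.46. Tsc22d3, the glucocorticoid-induced leucine zipper, ranged from 12.00 to 12.49 in untreated and from 10.97 to 12.67 in combination arrays, with 14 of 15 combination arrays below the lowest untreated array. It fell by 0.60 (SE 0.13, adjusted p = 0.000637). Angptl4, a lipase inhibitor that fasting and hypoxia also induce, fell by 1.76 (adjusted p = 0.000284), Mt2, a metallothionein, by 0.80 (adjusted p = 0.00597), and Zbtb16, a transcription factor, by 0.86 (adjusted p = 0.0153, or 0.0743 with the compared groups alone). Heat shock and chaperone genes were lower for 6 of 18 and, with the compared groups alone, for 3, among them Hspa1a, an inducible Hsp70, by 0.89 (adjusted p = 0.0101, lost without 1 of the 23 arrays at 0.0673). Of 19 hypoxia and glycolysis genes 5 were lower, or 3 with the compared groups alone, among them Pfkfb3, an activator of glycolysis, by 1.41 (adjusted p = 0.000512).

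Markers of tissues next to the colon were examined because they varied between arrays. Of 9 exocrine pancreas, 12 skeletal muscle and 15 squamous epithelium and hair genes, 0 were called in each list. The summed pancreas level ran from 12.45 to 15.28 in untreated and from 12.51 to 16.89 in combination arrays, and that of squamous genes from 10.88 to 15.01 and from 9.27 to 14.48. Of 6 adipocyte genes 1 was higher, beside 13.1% over all genes, with summed levels of 12.90 to 14.41 and 12.87 to 14.80. The seminal vesicle genes, a list of 7 made after the data were seen, had summed levels of 5.11 to 5.12 in untreated and 5.09 to 17.64 in combination arrays. Their summed level reached 15.22 on arrays of mice given TNFR-Ig alone and 15.34 on naive arrays. The same 4 combination arrays that carried them held replicates 5 and 7 of experiment 7, with 9 and 7 of the 10 largest falls inside the untreated range, and replicates 6 and 8, with 1 and 0. The part of these tissues in other results was not tested beyond leaving those arrays out.

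Circadian clock genes were higher for 7 of 16 and lower for 3, with a median of 0.35. Dbp ranged from 7.01 to 10.37 with a median of 8.57 in untreated, from 9.08 to 12.18 with a median of 10.47 in combination and from 11.90 to 12.78 in naive arrays. On 8 of 15 combination arrays it was above every untreated array. Its log2 difference was 1.93 ± 0.29 (SE, adjusted p = 1.48e-05). Nr1d1, the repressor Rev-erb alpha, rose by 1.68 (SE 0.28, adjusted p = 5.57e-05), with 10 of 15 combination arrays above the untreated range. Nfil3, a repressor of the same promoters that Dbp activates and a gene that cytokines also induce, fell by 1.96 (SE 0.36, adjusted p = 0.000158), from a median of 10.20 to one of 7.99.

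The clock genes did not all move alike in the experiments. Ciart, a repressor that peaks with Nr1d1, ranged from 2.92 to 3.10 in untreated and from 4.35 to 6.99 in combination arrays of experiment 7, and from 2.63 to 2.82 and from 2.63 to 3.14 in experiment 10. The groups were fully separate in experiment 7 and overlapped in experiment 10. Its difference was 2.61 (adjusted p = 2.21e-07) in experiment 7 and 0.08 (adjusted p = 0.898) in experiment 10, and these effects differed by -2.53 ± 0.44 (SE, adjusted p = 0.0015 for the difference). Arntl, the activator Bmal1, ranged from 9.21 to 9.42 in untreated and from 7.47 to 8.77 in combination arrays of experiment 7, and from 9.73 to 10.21 and from 9.58 to 10.53 in experiment 10. Its difference was -1.24 (adjusted p = 2.06e-05) and 0.09 (adjusted p = 0.79), again with a difference between the experiments (1.32, adjusted p = 0.0053). The repressors Per3 and Cry2 differed by 1.51 and 1.10 in experiment 7 and by 0.43 and 0.27 in experiment 10 (adjusted p = 0.0339 and 0.0436 for the difference, or 0.0803 and 0.168 without the 4 arrays with seminal vesicle genes). Arntl, Per3 and Cry2 are named after their values were seen. Fitted with the compared groups alone, the difference between experiments had an adjusted p of 0.053 for Ciart, 0.0839 for Arntl, 0.0899 for Per3 and 0.144 for Cry2. Over both experiments Arntl differed by -0.60 (adjusted p = 0.00801, or 0.0613 without the 4 arrays with seminal vesicle genes).

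**Figure D4:**
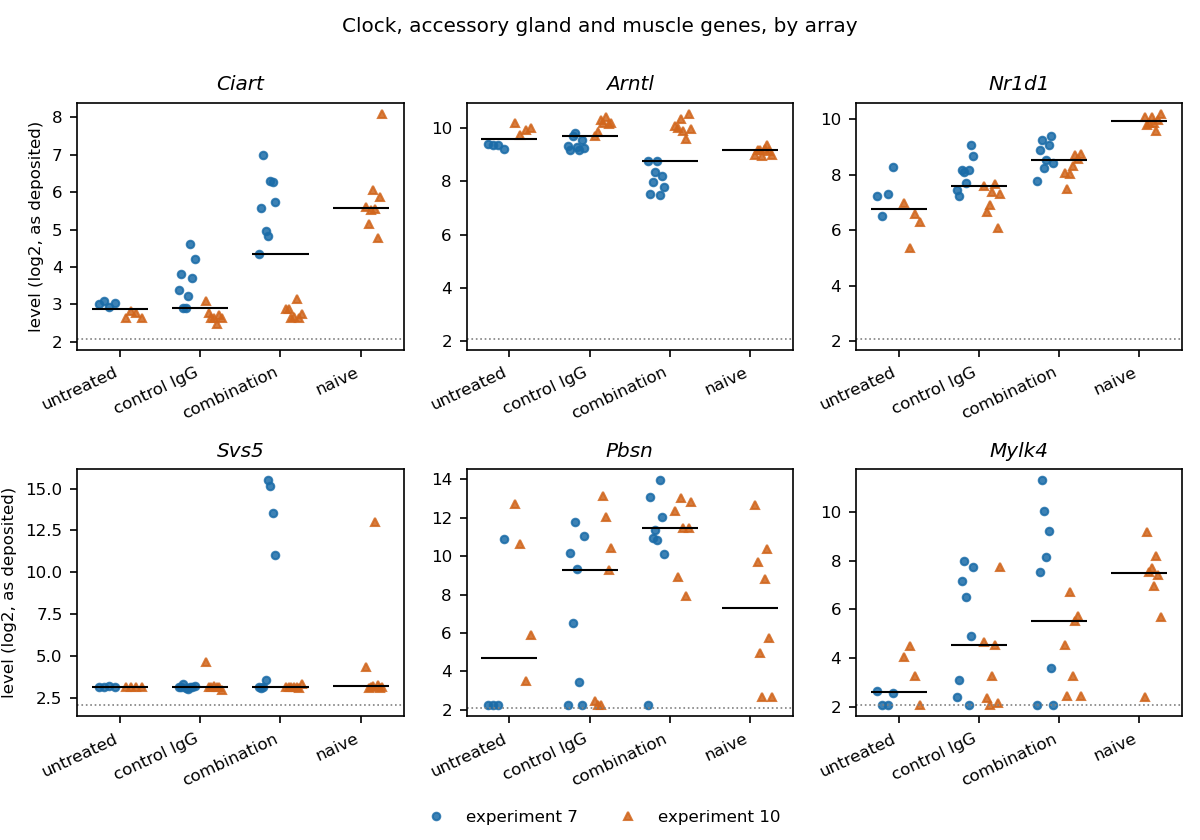
Deposited log2 level (vertical axis) of 3 clock genes (Ciart, Arntl, Nr1d1), the seminal vesicle gene Svs5, the prostate gene Pbsn and the muscle gene Mylk4 on each array of 4 groups. Circles are experiment 7, triangles experiment 10, black bars group medians and the dotted line the floor of 2.08. The combination arrays of experiment 7 are set apart for Ciart (4.35 to 6.99) and Arntl (7.47 to 8.77), and 4 of them carry Svs5.

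Over all genes, the effect of the combination differed between the experiments for 445 (3.55%), of which 396 had the higher effect in experiment 10. That count depended on which arrays shared the estimate of spread: with the compared groups alone it was 1, and without the 4 arrays with seminal vesicle genes it was 127. The 1 gene was H3f3b, a gene for the histone variant H3.3, which ranged from 6.13 to 6.96 in untreated and from 7.58 to 9.15 in combination arrays of experiment 7, and from 6.02 to 7.60 and from 4.79 to 6.08 in experiment 10. The combination arrays lay above all untreated arrays in experiment 7 and 6 of 7 lay below all untreated arrays in experiment 10. Its effects were 1.69 and -1.45, differing by -3.14 ± 0.55 (SE, adjusted p = 0.0015, or 0.00767 with the compared groups alone). Sprr2h, a small proline-rich protein of stressed epithelium, had effects of 2.14 and -2.01 (adjusted p = 0.0107 for the difference), Per1, a clock gene that glucocorticoids also induce, 0.34 and -1.41 (adjusted p = 0.0458), and Mt2 -0.18 and -1.46 (adjusted p = 0.0323). Without the 4 arrays with seminal vesicle genes the calls of Per1 (adjusted p = 0.158) and Mt2 (0.077) were lost.

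In the other direction, the largest differences were in Wscd2, with effects of -0.51 in experiment 7 and 1.69 in experiment 10 (adjusted p = 0.014 for the difference), Slc30a10, a manganese exporter, with -0.08 and 2.05 (adjusted p = 0.0495), Tubb3, a neuronal tubulin, with -0.58 and 1.43 (adjusted p = 0.0188), Mmp17, a membrane-bound protease, with -0.06 and 1.95 (adjusted p = 0.0318), and Spon2, an extracellular matrix protein, with -1.62 and 0.19 (adjusted p = 0.0109). The calls of Tubb3 (adjusted p = 0.0501), Mmp17 (0.0667) and Spon2 (0.0551) were lost without the 4 arrays with seminal vesicle genes, and all but that of H3f3b among the 10 named differences with the compared groups alone. Wscd2 ranged from 5.56 to 7.34 in untreated and from 7.53 to 8.22 in combination arrays of experiment 10, without overlap, and from 6.36 to 7.97 and from 5.34 to 7.51 in experiment 7. In smooth muscle, 4 of the 16 markers had effects that differed between experiments, and 8 were higher in experiment 10 against 0 in experiment 7. The neutrophil and NF-kB target lists had 0 genes whose effect differed between experiments, although 13 of 14 neutrophil markers were lower in experiment 10 and 3 of 14 in experiment 7, with medians of -4.36 and -2.39. Endothelial markers had the other split, with 11 of 17 lower in experiment 7 and 4 in experiment 10 and 0 whose effect differed. Of 15 glucocorticoid-responsive genes, 1 was lower in experiment 7 and 9 in experiment 10, and the effect of 2 differed between experiments. Over all genes, 9.08% were lower and 6.10% higher in experiment 7, against 4.79% and 10.3% in experiment 10.

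**Figure D5:**
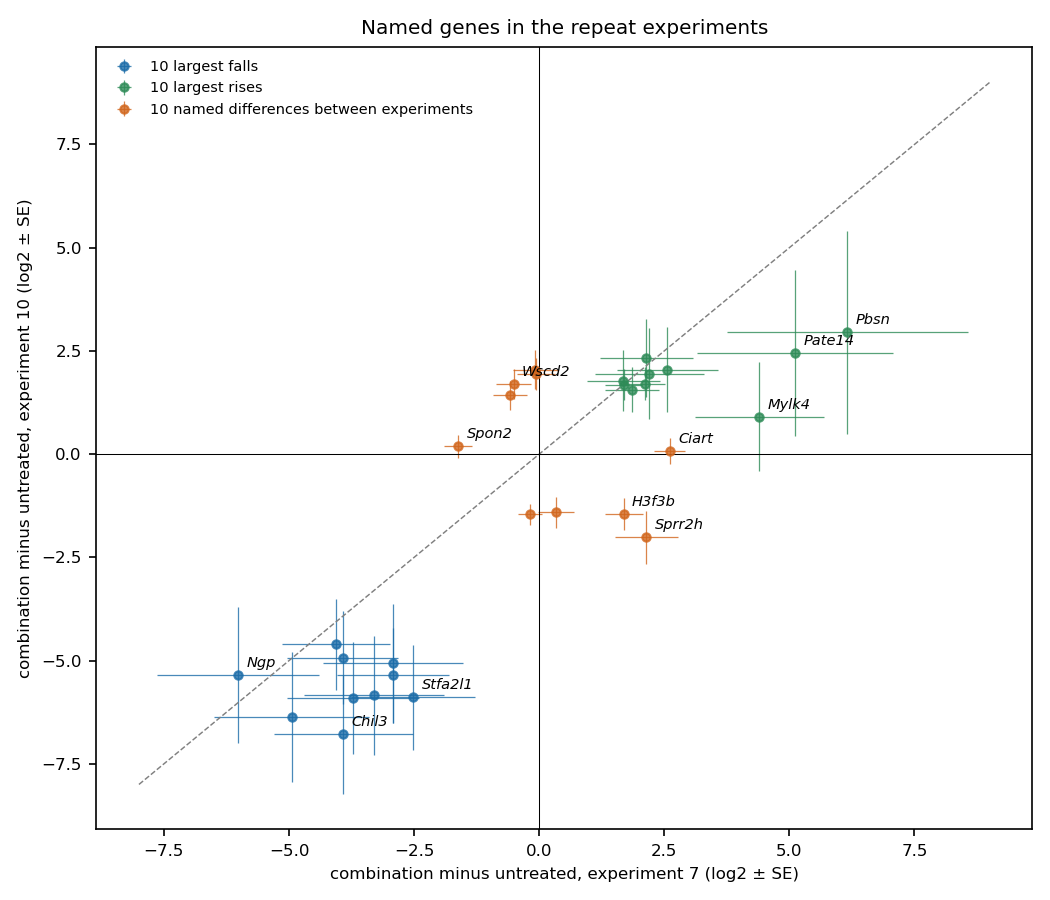
Log2 difference of combination from untreated colitis in experiment 7 (horizontal axis) and in experiment 10 (vertical axis) for the 10 largest falls, the 10 largest rises and 10 genes whose effect differed between experiments, with standard errors as bars. The dashed line marks equal effects. The falls and rises were chosen among called genes of equal sign in both experiments, so their shared sign follows from that choice. The largest falls lie between -2.52 and -6.79 on both axes, while H3f3b lies at 1.69 and -1.45.

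The control antibody gives another colitic group beside the untreated mice, and both comparisons share the 8 untreated arrays. Control IgG arrays had 469 genes higher (3.74%) and 572 lower (4.56%) than untreated arrays, 113 of them by at least 1 log2 unit. Set directly against control IgG, the combination had 1663 genes higher (13.3%) and 2005 lower (16.0%), 129 of them by at least 1 log2 unit. Ngp differed by -5.0 in control IgG against untreated (adjusted p = 0.00749) and by -0.72 in the combination against control IgG (adjusted p = 0.616). Marco likewise differed by -3.75 (adjusted p = 0.0136) and -0.14 (adjusted p = 0.918), and Tnfsf11 by -2.65 (adjusted p = 0.00347) and -0.23 (adjusted p = 0.751). Acod1 had the other arrangement, with -0.71 (adjusted p = 0.688) and -3.28 (adjusted p = 0.00266), as had Cxcl3, with -0.46 (adjusted p = 0.757) and -2.67 (adjusted p = 0.00268), Il1b, with -0.09 (adjusted p = 0.943) and -2.31 (adjusted p = 0.00118), and Tnfrsf12a, with 0.10 (adjusted p = 0.797) and -0.86 (adjusted p = 0.000508).

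The gene lists showed both arrangements too. Of 14 neutrophil markers, 1 was lower in control IgG than in untreated arrays and 10 were lower in the combination than in control IgG. Their median differences were -1.26 and -1.98. For the 28 NF-kB targets the counts were 2 and 14 (medians -0.27 and -0.74), and for the 21 chemokines 3 and 10 (-0.38 and -0.27). For the 19 matrix proteases and inhibitors they were 4 and 9 (-0.535 and -0.717). The first comparison rests on 8 untreated arrays and the second on 15 arrays in each group, so their counts differ in power. Monocyte and macrophage markers were lower for 14 of 21 in control IgG against untreated and for 4 in the combination against control IgG, and complement genes for 9 and 1 of 13. Endothelial markers were lower for 8 and 1 of 17 (medians -0.46 and -0.10), with 1 higher in the combination against control IgG. Extracellular matrix and fibroblast genes were lower for 7 and 2 of 23 (medians -0.26 and -0.01). Interferon gamma-inducible genes were higher for 11 of 16 in control IgG against untreated, and 0 were higher and 1 lower in the combination against control IgG. Type I interferon-stimulated genes were higher for 2 and 1 of 19 (medians 0.45 and 0.39), beside 3.74% and 13.3% higher over all genes. Glucocorticoid-responsive genes were lower for 5 and 1 of 15 (medians -0.32 and -0.06), with 1 higher in the combination against control IgG. Over all genes 4.56% and 16.0% were lower. MHC class II genes had 0 of 8 called in control IgG against untreated and 6 higher in the combination against control IgG, B and plasma cell markers 0 and 7 of 10, and clock genes 0 called and then 8 higher and 4 lower of 16. For cell cycle genes, 0 of 24 were called in either comparison with untreated arrays, and 13 were lower in the combination than in control IgG, where the control IgG median against untreated was 0.27. Heat shock and chaperone genes were higher for 3 of 18 in control IgG against untreated and lower for 12 in the combination against control IgG.

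The naive arrays, all of experiment 10, show how far the combination arrays stood from colon without TNBS. For Il22ra2, 14 of 15 combination arrays lay within the range of the 8 naive arrays, for Tnfsf11 11, for Rnf43 10, and for Ngp 12, all of these at the floor. For Il1r2, Acod1, Fcgr4, Fcgr1, Mmp3, Timp1, Lox, Tnc, Alox5ap and Ncf1 the count was 0, with combination medians above the naive medians in each: 7.17 against 2.25 for Il1r2, 8.2 against 5.86 for Fcgr4, and 11.31 against 9.07 for Lox. Aqp8 had 0 arrays in the naive range from below, with medians of 11.46 and 12.50, and so did Nr1d1, with 8.53 and 9.93. The combination arrays of experiment 7 have no naive arrays of their own experiment, so these counts set levels across experiments.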

How the data were processed

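RNA of whole colon was hybridised to Affymetrix mouse whole-genome expression arrays, 1 per mouse. The deposited values are log2 levels for 45101 probe sets, and the submitters' processing notes name RMA, GCRMA, R 2.11.1 and limma 3.4.5 without saying which method gave the deposited table. GCRMA and RMA both summarise probes on a log2 scale, and the values run from 2.08 to 15.98, so differences of dim genes are compressed at the lower end. Nothing was renormalized here, and the number of arrays limits the precision. Gene names came from the platform annotation, updated through Entrez identifiers (99.4% of probe sets with 1 symbol matched RefSeq, GRCm38.p6). The 932 probe sets with several symbols were not used. Each gene was represented by its brightest probe set, and a gene was tested if that probe set's mean exceeded 2.42, the level that 40% of probe sets stay under on average, as for 12534 genes.

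The 64 arrays of colitic mice were fitted together (limma 3.58.1 in R 4.3.3, lmFit and eBayes, two-sided) with treatment and experiment as terms, and a mean for each group in each experiment gave the effects within experiments and their difference. Naive arrays entered no main test. In 1 label field naive replicate 1 carries the combination treatment, against its title and source, by which it was grouped. P-values were adjusted by Benjamini-Hochberg over all genes tested, and a gene was called at an adjusted p under 0.05. The fit was tested on simulated data. Tables and figures were made with Python 3.11.15, pandas 2.3.3 and matplotlib 3.10.9. Each array is labelled as a separate mouse. In experiment 7 all arrays belong to the first array run by their array file names except combination replicates 7 and 8, which belong to the second with all of experiment 10.

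Genes named are the 10 largest rises and 10 largest falls among called genes of equal sign in both experiments, up to 4 called members of each of 44 gene lists, 7 tested pathway genes, and the 5 largest differences between experiments in each direction. Others are marked in the text. The comparison, lists and rule were chosen with earlier results of these data known. Alternatives covered the filter, probe sets, normalization, array weights, the arrays in the fit and leaving out each array. The lists of seminal vesicle and prostate genes, the fits without the 4 arrays that carry the former, those within 1 experiment with the compared groups alone, and an RNA integrity covariate were added after seeing the data. Tnf lay under the filter, and the TWEAK gene was not analysed here.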

Additional observations from a re-analysis of the deposited data

Results flagged for a closer look

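Several untreated arrays stood apart from the other 7 of their group by more than Dixon's critical value, which chance alone passes in about 1 group in 20. Each gene named in the text was examined, among them the 137 named with values, so several such flags would arise by chance. Flags of genes that vary together on 1 array are not separate signals. Untreated replicate 5 of experiment 7 was the lowest for Il1b (10.29), Cxcl1 (7.51), Arg1 (9.29), Fcgr3 (10.53), C5ar1 (11.95), Ereg (11.40) and Nfil3 (8.18), and the highest for Pla2g4c (7.45). It also had the lowest median of the 10 genes with the largest falls, 8.44. Leaving it out gave 3546 called genes in place of 2897.

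Untreated replicate 1 of experiment 10 was the highest for H2-Ob (8.14), H2-DMb2 (11.33) and Cd3g (5.96). Untreated replicate 3 of experiment 7 was the highest for Rela (9.31), and untreated replicate 2 of experiment 10 the lowest for Siglecf (4.38).

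The effect of the combination differed between the experiments, as a tested difference of experiment 10 minus experiment 7, for genes of the clock: Ciart by -2.53, Per1 by -1.75, Arntl by 1.32, Per3 by -1.08 and Cry2 by -0.83. Ciart and Arntl were separate between the groups in experiment 7 and overlapped in experiment 10. Mt2, a metallothionein, differed by -1.27, Sprr2h by -4.15 and H3f3b by -3.14. Wscd2 differed by 2.20, Slc30a10 by 2.13, Tubb3 by 2.01, Mmp17 by 2.01 and Spon2 by 1.81. All 11 untreated and combination arrays of experiment 10 belong to the second array run, against 2 of 12 in experiment 7, and the part of array run or hour of killing in these differences was not tested.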

How the results depend on the processing

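The count of 2897 genes that differed between combination and untreated arrays was 2116 to 3546 when each of the 23 arrays was left out in turn, lowest without untreated replicate 2 of experiment 10. It was 1977 with the compared groups alone, 3079 with all 72 arrays, 3964 with array weights, 2131 with RNA integrity as a covariate, 2161 without the 4 arrays with seminal vesicle genes, and 4513 over every probe set. Within 1 experiment it was 876 in experiment 7 alone and, with the compared groups alone, 0 in experiment 7 (limma, 2620 at an unadjusted p under 0.05) and 1696 in experiment 10, where the fit with all colitic groups gave 2756. With a replicate block it was 1628, and the control IgG count fell from 1041 to 479. Deviations of same-numbered arrays correlated over 0.1 in 6 of 8 pairs (range -0.28 to 0.38), and 1 of 8 untreated arrays correlated best with the combination array of its own number. These correlations do not settle whether equal numbers pair mice, and the main fit did not take the numbers as a pairing. The control IgG count was 1872 with array weights.

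The count of 445 genes whose effect differed between experiments became 262 after quantile normalization, 1201 with array weights, 127 without the 4 arrays with seminal vesicle genes and 1 with the compared groups alone. Of 137 genes named with values, all kept direction and call after quantile normalization, with trend and robust moderation and with all 72 arrays, while 126 did without the experiment term, 122 with the RNA integrity covariate, 120 without the 4 arrays, 118 with the compared groups alone, 111 with the replicate block, 97 in experiment 10 alone and 43 in experiment 7 alone. In these counts a gene called in neither the main fit nor the alternative was taken as kept, even where its sign turned. Among genes called in at least 1 of the fits compared, signs turned in experiment 7 for Slc30a10 (-0.08) and Mmp17 (-0.06). They turned in experiment 10 for Spon2 (0.19), Sprr2h (-2.01), H3f3b (-1.45) and Arntl (0.09). Wscd2, Tubb3 and Per1 also had effects of opposite sign in the experiments. The cause was not tested. Genes near the floor have no resolved level, which limits their differences.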
